A study of Homo sapiens with 24 samples.

Results

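HEK293T cells labelled as MIR210 knockout (MIR210-KO) were compared with wild-type (WT) HEK293T cells after both had been kept at 1% oxygen for 24 h. The comparison takes 8 of the 24 RNA-seq libraries of the series, 4 labelled Hypoxia MIR210-KO and 4 labelled Hypoxia WT, chosen by their labels and not by any measured value. Set beside them are the 8 libraries of the same genotypes kept at 21% oxygen for 24 h (Normoxia MIR210-KO and Normoxia WT, 4 each) and the 4 libraries of cells labelled MIR210HG knockout at 1% oxygen (Hypoxia MIR210HG-KO). HEK293T is a human embryonic kidney line that carries the SV40 large T antigen, and every group was grown in high-glucose DMEM with 10% fetal bovine serum. The labels do not say what was deleted, whether a knockout line is 1 clone or a pool, or whether libraries of a group came from separate cultures, so p-values measure the spread between these libraries only, which may be technical. RNA was bulk, and fewer cells of a type and less RNA per cell cannot be told apart in it.

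miR-210 is the microRNA most regularly switched on by low oxygen, because the HIF transcription factors act on its host transcript MIR210HG. Loaded on an Argonaute protein, a microRNA pairs through its seed, the bases at positions 2 to 8, with matches in 3' untranslated regions and lowers the stability or translation of those messenger RNAs, so loss of a microRNA would raise its targets. Known miR-210 targets include iron-sulfur cluster and respiratory chain proteins such as ISCU, NDUFA4 and SDHD, and the receptor ligand EFNA3. Low oxygen also hampers protein folding in the endoplasmic reticulum (ER), which sets off the unfolded protein response (ER chaperones, XBP1) and the integrated stress response (ATF4 and its targets).

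The mature strands of miR-210 are shown because the seed in capitals defines the target sites described further on. Both come from RefSeq (GRCh38.p14, chromosome 11, minus strand), the 3p strand at chr11:568112-568133 and the 5p strand at chr11:568150-568171.
hsa-miR-210-3p: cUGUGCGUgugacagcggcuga
hsa-miR-210-5p: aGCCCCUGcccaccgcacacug

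The knockout could not be checked at its own gene in these files. MIR210 (GRCh38, chr11:568089-568198, minus strand, inside the span of the long non-coding gene MIR210HG at chr11:565660-568457) had 11, 6, 6 and 10 counts in the MIR210-KO hypoxia libraries, against 14, 8, 2 and 6 counts in the WT hypoxia libraries, and failed the filter on low counts. The groups overlapped, and the mature microRNA was not measured by this assay. MIR210HG had 22.2, 18.9, 21.5 and 20.4 CPM (counts as a share of the library total, in parts per 1e6, after TMM scaling for composition) in MIR210-KO and 19.4, 16.8, 21.0 and 19.2 CPM in WT, with overlapping groups and a difference that did not pass the test (log2 fold change 0.12 ± 0.12 SE, edgeR adjusted p = 0.406). In normoxia MIR210HG passed the test as lower in MIR210-KO, at 3.48 ± 1.07 CPM against 5.70 ± 0.65 CPM in WT (−0.71 ± 0.15 SE, edgeR adjusted p = 0.00044). The hypoxia effect minus the normoxia effect passed it as well (0.83 ± 0.19 SE, edgeR adjusted p = 0.00208). In all 4 Hypoxia MIR210HG-KO libraries both MIR210HG and MIR210 had 0 counts. A short change inside the hairpin would leave the hypoxia counts of MIR210-KO in place, so they are no check of the label. MIR210-KO below names the libraries that carry that label.

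The 8 hypoxia libraries held 28063803 to 37858947 counts each. The first principal component of log2 CPM took 63.8% of the variance and separated the genotypes, and the second, with 10.5%, set WT 1, WT 3 and MIR210-KO 1 apart from the other 5 libraries. In WT 1 and WT 3, long non-coding RNAs took 1.62% and 1.55% of counts, against 2.49% and 2.25% in WT 2 and WT 4, and ribosomal protein genes took 8.55% and 8.99% against 6.96% and 7.05%. Results that rest on these libraries are given with and without them. The markers of HEK293 cells were present, with 12 of 12 tested (summed level 1410 to 1482 CPM in MIR210-KO and 1181 to 1408 CPM in WT). Of 18 blood and endothelial markers 6 passed the filter, with HBB and EMCN at 0 in both hypoxia groups. The summed level of all 18 was 17.1 to 18.5 CPM in MIR210-KO and 25.8 to 33.2 CPM in WT in hypoxia. In normoxia it was 18.7 to 21.8 CPM in MIR210-KO and 13.4 to 15.7 CPM in WT. RUNX1, a transcription factor not limited to blood, made up most of it in hypoxia (12.8 ± 0.54 CPM in MIR210-KO and 25.1 ± 2.88 CPM in WT), and the part of such cells in the results was not tested.

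Of 19952 genes tested, 11150 (55.9%) differed between MIR210-KO and WT in hypoxia at an edgeR quasi-likelihood adjusted p under 0.05, which is what "called", "rose" and "fell" mean below. They were 5627 higher genes (28.2%) and 5523 lower genes (27.7%), and the median log2 fold change (MIR210-KO over WT) of all genes tested was 0.02. In 8995 genes (45.1%) the 4 MIR210-KO and 4 WT libraries did not overlap in CPM, with MIR210-KO above WT in 4538 (22.7%) and below it in 4457 (22.3%). In normoxia, 8816 of the same genes (44.2%) were called, 4511 higher (22.6%) and 4305 lower (21.6%). The difference between the hypoxia and the normoxia effect, an interaction term, was called for 5287 genes (26.5%), with 2495 higher (12.5%) and 2792 lower (14%) in hypoxia than in normoxia. Every count of list members below stands against these shares.

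Most genes of the folding machinery of the ER were lower in MIR210-KO hypoxia cells. HSPA5 (BiP, the main ER chaperone of the Hsp70 type) had 332, 321, 320 and 317 CPM in the MIR210-KO libraries, against 2317, 1978, 2504 and 2101 CPM in WT. No library of one group came near the other, and HSPA5 was the largest loss in CPM of any called protein-coding gene (log2 fold change −2.79 ± 0.06 SE, adjusted p = 1.74e-26). In normoxia HSPA5 averaged 521 ± 11.5 CPM in MIR210-KO and 511 ± 28.8 CPM in WT (SD, n = 4 each), so the gap stood at 1% oxygen and the interaction was called (−2.81 ± 0.08 SE, adjusted p = 3.78e-22). Of 20 ER chaperones and co-chaperones, 18 fell and 2 rose, with a median log2 fold change of −0.70 in hypoxia, against −0.01 in normoxia. The interaction was lower for 16 and higher for 0 of them. The list has 2 members on chromosome 11, where most tested genes were lower, and both fell.

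The co-chaperones of HSPA5 fell with it. DNAJB9, an Hsp40 protein that acts with HSPA5 and on the sensor IRE1, had 14.3, 12.6, 15 and 14.3 CPM in MIR210-KO, against 54.6, 48.4, 53.7 and 54.5 CPM in WT (log2 fold change −1.91 ± 0.08 SE, adjusted p = 4.34e-19), and HYOU1, the Grp170 chaperone and exchange factor, had 77.3, 70.7, 72.5 and 73.7 CPM against 252, 250, 282 and 292 CPM (−1.87 ± 0.05 SE, adjusted p = 2.13e-23). Neither gene had a MIR210-KO library near the WT range. MANF, a secreted ER protein that binds HSPA5, fell as well (−1.29 ± 0.08 SE), as did HSP90B1, the Hsp90 of the ER (−0.92 ± 0.06 SE), and the lectin chaperones CANX (−0.63 ± 0.05 SE) and CALR (−0.43 ± 0.06 SE). CANX, which holds glycoproteins until they fold, averaged 1115 ± 51.6 CPM in MIR210-KO and 1723 ± 67.1 CPM in WT. The prolyl isomerase FKBP2 (−1.27) and SDF2L1 (−0.92) also fell. The exceptions were UGGT1, which reglucosylates misfolded glycoproteins (168 ± 8.43 CPM in MIR210-KO and 131 ± 18.9 CPM in WT), and FKBP11 (17.8 ± 1.37 and 12.1 ± 0.45 CPM), both of which rose.

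Promoters were searched because many genes of the unfolded protein response carry the ER stress element, CCAAT and CCACG 9 bases apart. In windows from 250 bases before to 50 bases after the start sites in RefSeq (GRCh38.p14), the element was found on either strand in 7 of 24 windows (29.2%) of the 16 lower ER chaperones with a window, against 20 of 17628 windows (0.113%) of the 12125 tested genes with a window. The 3 matches of CANX are 1 site seen in 3 overlapping windows. The matches below are printed on the gene's own strand with both parts of the element in capitals. A match is a description and not a binding site. The promoter shares here and further on count only members called in the named direction, and were no test of why those members changed.
HSPA5, chr9:125241388-125241412: tcaCCAATcggcggcctCCACGacg
HSP90B1, chr12:103930213-103930237: tgaCCAATcggaaggagCCACGctt
HSP90B1, chr12:103930318-103930342: gtgCGTGGtgcggcgcgATTGGtgg
CANX, chr5:179698775-179698799: cggCCAATcttcacactCCACGaag
CALR, chr19:12938381-12938405: acgCGTGGtcgaccatcATTGGtcg
CRELD2, chr22:49918551-49918575: tctCGTGGcgaactcggATTGGgcc
XBP1, chr22:28800600-28800624: tggCCAATcgcggagggCCACGacc
The window of HSPA5, the chaperone that fell most, and that of CRELD2, which fell least of these (−0.40, with overlapping groups), both hold it. Lower chaperones with and without the element were not compared, so its bearing on the size of the difference was not tested. XBP1, a transcription factor of the response, is listed with the degradation genes, where 1 of 12 windows (8.33%) of lower members held the element.

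Genes for disposal, import and export of ER proteins were lower too. HERPUD1, a scaffold of the ER membrane degradation complex, had 50.4, 42.1, 43.4 and 50 CPM in MIR210-KO, against 317, 280, 338 and 299 CPM in WT (log2 fold change −2.73 ± 0.07 SE, adjusted p = 5.91e-25), and XBP1 had 109, 91.0, 95.1 and 95.7 CPM against 403, 348, 422 and 368 CPM (−1.98 ± 0.06 SE, adjusted p = 1.47e-22). In both genes every MIR210-KO library was below every WT library. Of 21 genes of ER-associated degradation 14 fell, 2 rose and 5 were not called (median −0.46), among the lower ones SELENOS (−1.44) and the ubiquitin ligase SYVN1 (−1.32). DERL3 fell as well (−1.88), but 77% of its exon bases are shared with a gene on the other strand and the strand setting of the counting is not given in the sources used here, so its value is uncertain.

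Of 36 genes for entry into the ER and for traffic to the Golgi, 29 fell, 2 rose and 5 were not called (median −0.47), and the interaction was lower for 29 and higher for 0. SEC24D, a cargo adaptor of COPII vesicles, had 31.6, 30.4, 29.7 and 32.8 CPM in MIR210-KO, against 122, 134, 119 and 139 CPM in WT (−2.04 ± 0.07 SE, adjusted p = 1.85e-21). Its hypoxia MIR210-KO level was close to both normoxia groups (31.4 ± 1.73 CPM in Normoxia MIR210-KO and 37.5 ± 4.03 CPM in Normoxia WT), while hypoxia WT stood above all 3. The signal recognition particle receptor SRPRA (−1.43), the translocon genes SSR3 (−1.23), SEC61B (−1.08) and SEC61A1 (−1.04), and the COPI coat gene COPB1 (−1.22) fell. KDELR3, a receptor that retrieves ER residents, rose (0.40). SRPRA and COPB1 lie on chromosome 11, where most tested genes were lower, as described further on.

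Protein disulfide isomerases and oxidases moved less, with 14 of 20 lower, 3 higher and 3 not called (median −0.29). PDIA4 fell most, with 165, 158, 153 and 157 CPM in MIR210-KO, against 469, 428, 532 and 458 CPM in WT (−1.58 ± 0.05 SE, adjusted p = 1.85e-21). The isomerases of general use were closer between the groups, with PDIA3 at −0.16, PDIA6 at −0.20 and P4HB at −0.23, and PRDX4, a peroxidase of the ER, rose (0.38). Without MIR210-KO 1, 1 of the 20 was higher in place of 3. Among 14 ER stress sensors, eIF2alpha kinases and their partners, 8 fell and 4 rose. EIF2AK3 (PERK), the kinase by which ER stress acts on translation, fell (−1.10 ± 0.08 SE; 19.5 ± 1.05 CPM in MIR210-KO and 41.9 ± 3.66 CPM in WT), as did the membrane-bound transcription factor CREB3L2 (−1.65). EIF2AK4, the kinase for amino acid shortage, and EIF2AK1, the heme-sensing kinase, rose slightly (0.14 and 0.22), and EIF2AK2 (PKR), which is itself induced by interferon, rose by 0.52.

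**Figure D1:**
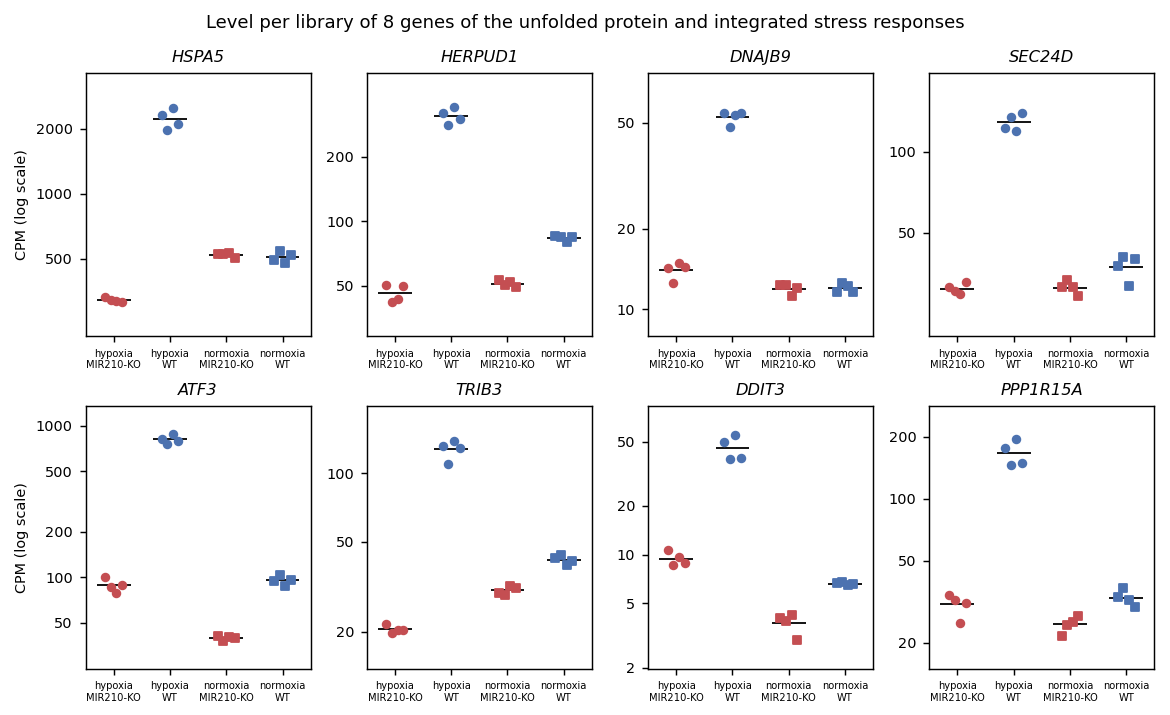
Level in CPM (log axis) of 4 ER genes (HSPA5, HERPUD1, DNAJB9, SEC24D) and 4 genes of the integrated stress response (ATF3, TRIB3, DDIT3, PPP1R15A), 1 point a library and a line at the mean of each group, with MIR210-KO left of WT in hypoxia and then in normoxia. HSPA5 in hypoxia sits between 317 and 332 CPM in MIR210-KO and between 1978 and 2504 CPM in WT, whereas its normoxia means are 521 and 511 CPM.

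The effectors of the integrated stress response, which ATF4 switches on when eIF2alpha is phosphorylated, fell by more. Of 28 listed genes 24 fell, 2 rose and 2 were not called, and the median log2 fold change was −1.09, against −0.56 in normoxia, where 21 fell and 3 rose. ATF3, a transcription factor of the stress response, had 99.9, 85.9, 78.3 and 89.1 CPM in MIR210-KO, against 820, 759, 890 and 798 CPM in WT (−3.21 ± 0.07 SE, adjusted p = 5.31e-26). TRIB3, a pseudokinase that restrains ATF4, had 21.6, 19.7, 20.3 and 20.5 CPM against 132, 111, 138 and 130 CPM (−2.64 ± 0.07 SE, adjusted p = 1.76e-23). The groups were far apart in both genes. PPP1R15A (GADD34), which directs the removal of the phosphate from eIF2alpha, had 34.3, 32.3, 25.0 and 31.3 CPM in MIR210-KO and 176, 147, 194 and 149 CPM in WT (−2.44 ± 0.09 SE), and DDIT3 (CHOP), the factor linked to cell death under ER stress, fell by 2.28 on the log2 scale. For DDIT3, 31.6% of exon bases are shared with genes on the other strand, so its value is uncertain. ATF4 itself, which is controlled mostly at translation, fell less (−0.72 ± 0.06 SE; 624 ± 36.1 CPM in MIR210-KO and 1026 ± 137 CPM in WT).

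Members differed in whether oxygen mattered. CHAC1, which degrades glutathione, averaged 7.95 ± 0.47 CPM in MIR210-KO and 31.1 ± 3.89 CPM in WT in hypoxia (−1.96), and 6.68 ± 0.76 CPM in MIR210-KO and 42.6 ± 5.32 CPM in WT in normoxia, so its loss was smaller in hypoxia (interaction 0.71 ± 0.15 SE, adjusted p = 0.000534). CEBPG, a partner of ATF4, averaged 108 ± 2.78 CPM in MIR210-KO and 253 ± 12.4 CPM in WT in hypoxia, and 99.3 ± 5.80 CPM in MIR210-KO and 104 ± 4.85 CPM in WT in normoxia, so its loss stood at 1% oxygen (interaction −1.15 ± 0.07 SE, adjusted p = 4.22e-13). The hepatokine FGF21 was near 0 in MIR210-KO (0, 0.182, 0.565 and 0.0944 CPM) and had 3.06, 3.00, 4.00 and 3.99 CPM in WT. TNFRSF10B, a death receptor, rose (0.33), and VLDLR, a lipoprotein receptor, rose by 0.15. Without any one of MIR210-KO 1, 3 or 4 or WT 1, 3 or 4, 1 of the 28 was higher in place of 2.

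TGATGCAA, the composite element that ATF4 binds with C/EBP partners, was found on either strand in 5 of 40 windows (12.5%) of the lower members, against 92 of 17628 windows (0.522%) of tested genes. The matches are shown on the gene's own strand with the element in capitals.
CHAC1, chr15:40953259-40953272: ccgTTGCATCActc
CEBPG, chr19:33374068-33374081: gtcTGATGCAAcct
FGF21, chr19:48755467-48755480: ggaTTGCATCAggg
JDP2, chr14:75428003-75428016: ggcTGATGCAAccc
DDR2, chr1:162632471-162632484: atcTTGCATCAgcc
The windows of ATF3, TRIB3 and PPP1R15A did not hold these letters.

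Supply of amino acids followed the same direction. Of 20 cytosolic aminoacyl-tRNA synthetases, which charge transfer RNAs with amino acids, 18 fell, 0 rose and 2 (HARS and QARS) were not called, with a median of −0.74 in hypoxia and −0.13 in normoxia, and the interaction was lower for 17. CARS (cysteine) had 49.2, 43.8, 42.9 and 46.2 CPM in MIR210-KO, against 132, 119, 151 and 122 CPM in WT (−1.52 ± 0.06 SE, adjusted p = 1.62e-19). GARS (glycine) had 193, 185, 172 and 194 CPM against 465, 412, 489 and 427 CPM (−1.27 ± 0.06 SE, adjusted p = 1.1e-18), and neither gene overlapped between the groups. WARS (−1.31), SARS (−1.15), MARS (−1.04) and FARSB (−1.02) fell too. Of 17 mitochondrial synthetases only 4 fell, 5 rose and 8 were not called (median 0.07), with NARS2 on chromosome 11 at −1.14 and CARS2 on chromosome 13 at 1.46. Without MIR210-KO 2 or without WT 3, 1 cytosolic synthetase was higher in place of 0.

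Of 16 genes for serine, one-carbon and asparagine synthesis, 11 fell and 2 rose (median −0.42), led by ASNS, asparagine synthetase (−1.65, with 44.6% of its exon bases shared with another gene), and PSAT1, which makes the serine precursor (−1.24 ± 0.06 SE; 234 ± 9.04 CPM in MIR210-KO and 554 ± 33.7 CPM in WT). Without MIR210-KO 1 or without WT 3, 1 of the 16 was higher in place of 2. Of 14 amino acid transporters, 11 fell and 2 rose (median −0.64). SLC7A11, the cystine importer, had 50.8, 53.4, 47.9 and 52.1 CPM in MIR210-KO, against 157, 195, 140 and 199 CPM in WT (−1.76 ± 0.09 SE, adjusted p = 2.31e-17), and SLC3A2, the subunit it shares with other importers, fell by 1.37 on the log2 scale. SLC36A1, a transporter of lysosomes, rose (0.80). Without WT 1, WT 3 and MIR210-KO 1, 1 transporter was higher in place of 2.

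Immediate-early genes, which growth factor and stress kinases switch on within minutes, were lower in hypoxia and not in normoxia. Of 32 tested, 19 fell, 2 rose and 11 were not called (median −0.85), while in normoxia 9 were lower and 13 higher (median 0.12), and the interaction was lower for 23 and higher for 0. JUN had 799, 663, 683 and 717 CPM in MIR210-KO, against 1726, 1535, 1832 and 1587 CPM in WT (−1.22 ± 0.07 SE, adjusted p = 1.92e-16). FOS, its partner in the AP-1 factor, had 14.1, 11.1, 9.44 and 12.6 CPM against 53.6, 48.7, 46.9 and 43.0 CPM (−2.02 ± 0.13 SE, adjusted p = 2.86e-14). DUSP1, a phosphatase of MAP kinases, averaged 24.4 ± 2.03 CPM in MIR210-KO and 73.8 ± 7.78 CPM in WT (−1.6), and EGR1 averaged 9.83 ± 1.40 CPM in MIR210-KO and 22.4 ± 4.15 CPM in WT (−1.18). The WT levels of FOS, DUSP1 and EGR1 stood above their normoxia WT levels, where they averaged 2.96 ± 0.997 CPM for FOS, 23.8 ± 2.30 CPM for DUSP1 and 5.94 ± 1.24 CPM for EGR1, although oxygen level and count table coincide and cannot be told apart there. MYC was not called (−0.13), and IER5 (0.63) and DUSP2 (1.40) rose. IER3 fell (−1.55), with 26.5% of its exon bases shared with a gene on the other strand.

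Targets of the HIF transcription factors, the direct read-out of low oxygen, divided. Of 25 intracellular targets 12 fell, 3 rose and 10 were not called (median −0.10), and of 24 genes for glucose uptake and glycolysis 9 fell and 9 rose (median −0.00). NDRG1, a stress-response gene, had 230, 201, 210 and 217 CPM in MIR210-KO, against 669, 677, 712 and 713 CPM in WT (−1.69 ± 0.06 SE, adjusted p = 4.5e-21). HK2, the first enzyme of glycolysis, had 227, 222, 242 and 239 CPM against 591, 713, 643 and 734 CPM (−1.53 ± 0.07 SE, adjusted p = 7.93e-19). Both genes were separate between the groups and both had a called interaction (−0.62 and −1.21). The glucose transporters SLC2A3 (−1.46) and SLC2A1 (−0.80) and lactate dehydrogenase LDHA (−0.78) fell, with LDHA, on chromosome 11, at 1338 ± 35.4 CPM in MIR210-KO and 2300 ± 185 CPM in WT. In LDHA the interaction was not called (−0.12 ± 0.07 SE, adjusted p = 0.234).

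Other HIF targets rose or were not called. BNIP3, a mitophagy receptor, had 395, 370, 384 and 355 CPM in MIR210-KO and 319, 282, 312 and 284 CPM in WT (0.33 ± 0.06 SE, adjusted p = 1.03e-05), with no overlap, and it lies on chromosome 10, most of whose called genes were higher. AK4 (0.51), the enolase ENO2 (0.52) and PGAM1 (0.62) rose, and GAPDH (0.02) and ENO1 (0.04) were not called. PGAM1 lies on chromosome 10 too, in a 10 Mb window whose median was 0.44. PGK1, which turns over a phosphate in mid-glycolysis, differed little (1382 ± 51.5 CPM in MIR210-KO and 1508 ± 31.4 CPM in WT, −0.13 ± 0.04 SE, adjusted p = 0.0152). HILPDA, a lipid droplet protein, fell (−1.22), and so did ANKRD37 (−1.19) and DDIT4 (−0.67), which share 35.2% and 41.2% of their exon bases with genes on the other strand. Without WT 2 or without WT 4, 5 of the 25 intracellular targets were higher in place of 3. ACGTG, the core that HIF binds, was found in 7 of 12 windows (58.3%) of the lower targets, against 4336 of 17628 windows (24.6%) of tested genes. The same share, 7 of 12 windows, was found for the lower genes of ER-associated degradation, and 8 of 24 (33.3%) for the lower ER chaperones.

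Of 11 HIF subunits and oxygen sensors, 3 rose, 3 fell and 5 were not called (median −0.06). HIF1A (0.10) and VHL (−0.06) were not called. EPAS1 (HIF-2alpha) fell (−0.56 ± 0.06 SE; 35.2 ± 1.26 CPM in MIR210-KO and 52.0 ± 2.01 CPM in WT), with a larger loss in normoxia (interaction 0.47 ± 0.08 SE, adjusted p = 4.56e-05), while HIF1AN, the asparagine hydroxylase that restrains HIF, rose (0.79) and ARNT2 rose (1.26). HIF1AN lies on chromosome 10, in a 10 Mb window whose median was 0.34. HIF3A was also called higher, at a very low level, with 0.171, 0.441, 0.399 and 0.22 CPM in MIR210-KO and 0.06, 0.0751, 0 and 0 CPM in WT. Of 14 secreted hypoxia factors tested of 17 listed, 7 fell and 3 rose (median −0.21). VEGFA, the angiogenic factor, had 147, 145, 143 and 137 CPM in MIR210-KO, against 340, 355, 334 and 362 CPM in WT (−1.28 ± 0.05 SE, adjusted p = 1.98e-19). STC1, a glycoprotein hormone, fell (−2.28), as did ADM (−1.14), whereas VEGFC, a lymphatic growth factor, rose (1.77; 8.19 CPM in MIR210-KO and 2.41 CPM in WT). VEGFA and VEGFC therefore moved in opposite directions.

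Interferon-stimulated genes went the other way. Of 47 listed, 35 passed the filter on low counts, and of those 25 rose, 0 fell and 10 were not called, with a median log2 fold change of 0.97, and 0.77 in normoxia (23 higher, 1 lower). TRIM25, a ubiquitin ligase that activates the RNA sensor RIG-I, had 91.3, 92.4, 105 and 103 CPM in MIR210-KO, against 25.8, 30.2, 26.1 and 31.9 CPM in WT (1.78 ± 0.07 SE, adjusted p = 1.56e-20). IFIT5, which binds the ends of RNAs, had 41.9, 46.4, 40.2 and 43.4 CPM against 17.1, 20, 19.3 and 18.2 CPM (1.2 ± 0.09 SE, adjusted p = 6.42e-13), and both genes were separate between the groups. DTX3L (2.19) and its divergent neighbour PARP9 (1.99), which act as a pair on histones, rose together. The RNA sensor IFIH1 (MDA5) had 2.79, 2.46, 3.29 and 2.74 CPM in MIR210-KO and 0, 0.100, 0.0823 and 0.0808 CPM in WT, and SAMD9 had 3.30, 4.75, 3.02 and 2.83 CPM against 0.15, 0.376, 0.219 and 0.404 CPM. Both were low in level in WT.

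The textbook marker ISG15 did not rise (13.6, 14.0, 13.3 and 13.1 CPM in MIR210-KO and 14.1, 14.2, 14.2 and 14.9 CPM in WT; −0.09 ± 0.09 SE, adjusted p = 0.392). MX1, OAS1, OAS2, RSAD2 and 8 others of the list did not pass the filter. LGALS3BP (4.65) and BST2 (4.35) lie on chromosomes 17 and 19, and the members on chromosome 11 included 4 higher and 0 lower of 7, although that chromosome's median was −0.48. In antigen presentation, NLRC5, the activator of class I genes, rose (2.44 ± 0.20 SE; 3.55 ± 0.30 CPM in MIR210-KO and 0.65 ± 0.18 CPM in WT), as did ERAP2, a peptide trimmer (3.83), and B2M, the light chain (0.72 ± 0.08 SE; 171 ± 6.73 and 103 ± 14.7 CPM). HLA-E fell (−0.70). It lies on chromosome 6, in a window of 204 tested genes whose median was −0.54. Over the 17 genes of this list 7 rose, 3 fell and 7 were not called. Without WT 1, WT 3 and MIR210-KO 1, 1 of these genes was lower in place of 3.

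GAAA and GAAA 2 bases apart, the core of the interferon-stimulated response element, was found on either strand in 16 of 26 windows (61.5%) of the higher interferon-stimulated genes, against 504 of 17628 windows (2.86%) of tested genes. A few are shown on the gene's own strand with the repeats in capitals, for genes that rose by different amounts.
LGALS3BP, chr17:78979969-78979984: ctgGAAAtcGAAAgta
BST2, chr19:17405748-17405763: tggGAAActGAAActg
OAS3, chr12:112938328-112938343: aacGAAActGAAAgca
IFIT1, chr10:89392517-89392532: cccTTTCggTTTCcct
IFIT5, chr10:89414520-89414535: aagTTTCggTTTCtga
IFI6, chr1:27672295-27672310: gggGAAAatGAAActg
DTX3L, chr3:122564329-122564344: agcGAAActGAAActt
DTX3L and PARP9 are transcribed away from each other and share that 1 site. Members of the list that were not called were not counted, so the share was no test of the rise.

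**Figure D2:**
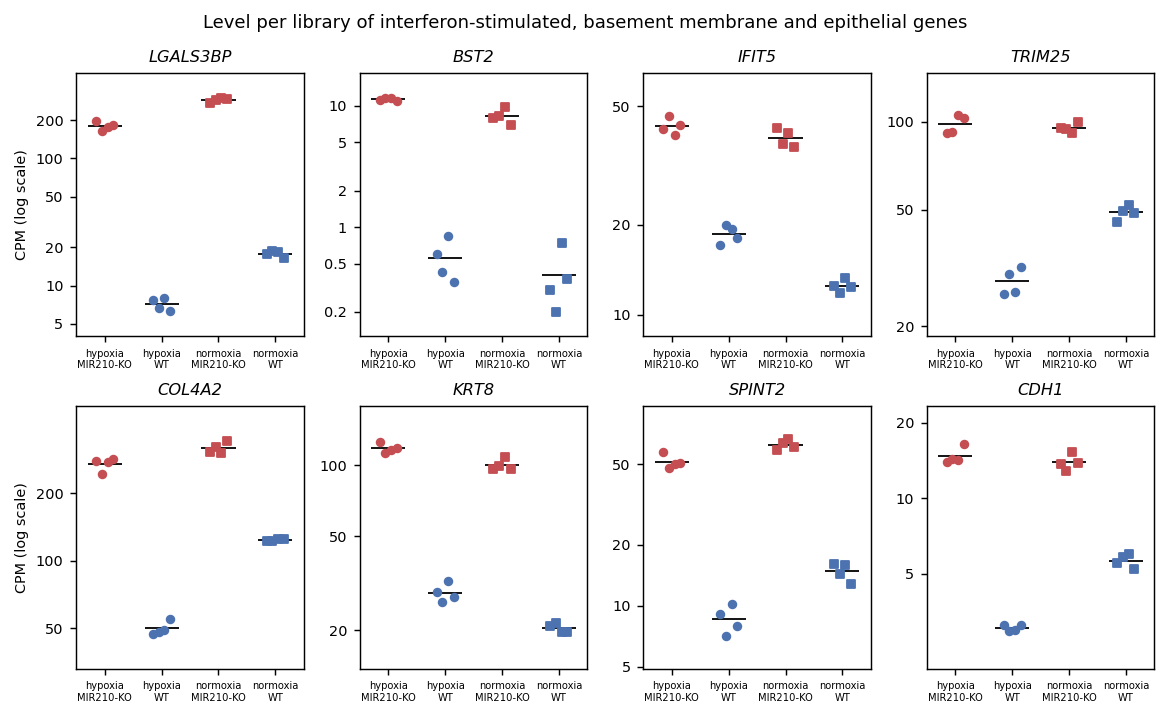
Level in CPM (log axis) of 4 interferon-stimulated genes (LGALS3BP, BST2, IFIT5, TRIM25), COL4A2 and 3 epithelial genes (KRT8, SPINT2, CDH1), 1 point a library and a line at the group mean, with MIR210-KO left of WT in hypoxia and then in normoxia. TRIM25 sits between 91.3 and 105 CPM in hypoxia MIR210-KO and between 25.8 and 31.9 CPM in hypoxia WT, and MIR210-KO is above WT at both oxygen levels for all 8 genes.

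Epithelial junction genes were higher in MIR210-KO at both oxygen levels. Of 30 tested of 34 listed, 21 rose, 4 fell and 5 were not called (median 0.96 in hypoxia, 0.78 in normoxia). CDH1 (E-cadherin) had 14.0, 14.3, 14.2 and 16.5 CPM in MIR210-KO, against 3.12, 2.95, 2.99 and 3.12 CPM in WT (2.27 ± 0.10 SE, adjusted p = 1.99e-18). KRT8, a keratin of simple epithelia, had 125, 113, 116 and 118 CPM against 29.1, 26.3, 32.2 and 27.8 CPM (2.03 ± 0.07 SE, adjusted p = 2.09e-21), and the groups of both genes were apart. The membrane protease inhibitors SPINT2 (2.58; 51.4 ± 4.27 CPM in MIR210-KO and 8.58 ± 1.35 CPM in WT) and SPINT1 (3.08), P-cadherin CDH3 (2.71) and the tricellular junction protein MARVELD2 (3.41) rose. Among the 4 that fell were the desmosomal cadherins DSG2 (−1.04) and DSC2 (−1.36). Both lie on chromosome 18 between 30 and 40 Mb, where the median of 49 tested genes was −1.36.

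The counterpart list did not mirror this. Of 36 mesenchymal and matrix genes 13 rose, 12 fell and 11 were not called (median 0.11). SNAI2 (Slug), a repressor of E-cadherin, had 16.0, 13.5, 13.6 and 16.7 CPM in MIR210-KO, against 114, 106, 117 and 99.7 CPM in WT (−2.87 ± 0.08 SE, adjusted p = 1.8e-23), with no overlap. FN1 (fibronectin) averaged 89.3 ± 6.00 CPM in MIR210-KO and 193 ± 29.7 CPM in WT (−1.11), and ZEB1 (−0.48) and ZEB2 (−0.63), repressors of the same kind, fell, while vimentin VIM (0.16) was not called. TNC, a matrix glycoprotein, fell (−1.80), and THBS1 (1.34), MMP2 (1.03) and LAMA1 (1.07) rose. Of 12 fibroblast and muscle markers 8 passed the filter. The summed level of all 12 was 55.0 to 59.5 CPM in MIR210-KO and 36.4 to 40.5 CPM in WT in hypoxia. In normoxia it was the other way round, 41.05 to 46.89 CPM in MIR210-KO and 48.4 to 51.7 CPM in WT. FAP was at 0 in all 8 hypoxia libraries and DCN in the 4 of MIR210-KO, and the part of these cells in the result was not tested.

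Collagens rose in number. Of 23 tested, 15 rose, 4 fell and 4 were not called (median 0.79 in hypoxia, 0.21 in normoxia), and the interaction was higher for 12 and lower for 0. COL4A2, a chain of basement membrane collagen, had 276, 244, 276 and 284 CPM in MIR210-KO, against 47.3, 48.2, 49.2 and 55.2 CPM in WT (2.43 ± 0.07 SE, adjusted p = 7.14e-23), and its head-to-head partner COL4A1 rose by 2.29. These 2 genes lie at the end of chromosome 13, where the median of 45 tested genes was 1.10, so that COL4A2 stood 1.33 above its own window. COL4A3, a collagen of kidney basement membrane on chromosome 2, had 16.1, 20.3, 18.1 and 18.5 CPM in MIR210-KO and 1.86, 1.63, 1.10 and 2.13 CPM in WT (3.44 ± 0.14 SE, adjusted p = 1.42e-19), COL12A1 on chromosome 6 rose by 3.18 and COL2A1, the cartilage collagen, by 2.00. COL3A1 fell (−1.56), at 1.67 CPM in MIR210-KO and 4.93 CPM in WT.

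Signalling genes were mixed. In the WNT list 19 of 33 rose and 6 fell (median 0.34), with the secreted inhibitor SFRP1 at 29.5, 32.5, 32.0 and 33.4 CPM in MIR210-KO, against 4.32, 3.58, 3.62 and 3.5 CPM in WT (3.09 ± 0.09 SE, adjusted p = 5.43e-23). The ligands WNT5A (0.86) and WNT7B (1.91) and beta-catenin CTNNB1 (0.45) rose, and the receptor LGR4, on chromosome 11, fell (−0.74). In the NOTCH list 12 of 23 rose and 6 fell (median 0.32). NOTCH3 had 112, 101, 114 and 113 CPM in MIR210-KO, against 31.6, 40, 31.3 and 41.1 CPM in WT (1.61 ± 0.10 SE), and the ligand JAG2 rose (1.09), but the target genes HES1 (−0.72) and HEY1 (−0.52) fell. Of 41 genes of BMP, activin and TGF-beta signalling 22 fell and 11 rose (median −0.16). The ligands BMP2 (−4.11; 1.16 ± 0.11 CPM in MIR210-KO and 20.3 ± 1.51 CPM in WT), INHBA (−4.17) and INHBE (−3.03) fell, as did the BMP target ID1 (−1.82), while INHBB (1.96) and TGFB1 (1.14) rose.

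Neuronal genes, part of which HEK293 cells express, were higher. Of 25 tested of 33 listed, 13 rose, 5 fell and 7 were not called (median 0.52, and 0.65 in normoxia). The summed level of all 33 in hypoxia was 1483 to 1582 CPM in MIR210-KO, against 1158 to 1381 CPM in WT. DPYSL3, a protein of growing neurites, had 12.5, 15, 14.3 and 14.1 CPM in MIR210-KO and 2.04, 2.68, 2.52 and 2.86 CPM in WT (2.46 ± 0.11 SE, adjusted p = 1.24e-18), with groups apart. INA (1.23) and MAPT (tau, 1.23) rose. Of 26 kidney development genes 8 rose, 7 fell and 11 were not called, with the podocyte protein PODXL (1.58) and the integrin ITGA8 (1.55) higher and EYA1 (−1.05) lower.

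In metabolism, cholesterol synthesis was lower in MIR210-KO at both oxygen levels. Of 24 tested genes 17 fell, 3 rose and 4 were not called (median −0.34 in hypoxia, −0.40 in normoxia). INSIG1, the sterol-regulated ER anchor of SREBP, had 142, 137, 135 and 145 CPM in MIR210-KO, against 393, 376, 390 and 364 CPM in WT (−1.45 ± 0.05 SE, adjusted p = 1.85e-21), and HMGCS1, an early enzyme, had 86.8, 91.4, 92.5 and 95 CPM against 206, 229, 214 and 207 CPM (−1.23 ± 0.06 SE, adjusted p = 2.79e-18). Neither overlapped. In fatty acid synthesis 7 of 22 rose and 7 fell, the lower ones including the desaturases FADS1 (−0.94) and FADS2 (−1.20), both on chromosome 11.

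The respiratory chain and the ribosome moved little, and their counts depended on the libraries that stood apart. Of 37 nuclear complex I subunits 10 rose, 8 fell and 19 were not called (median 0.06), and 3 of the 8 lower ones (NDUFS8, NDUFS3 and NDUFV1) lie on chromosome 11. Without MIR210-KO 1 or without WT 2, 5 of them were higher, without WT 4 6, and without WT 1, WT 3 and MIR210-KO 1, 16. Of 36 subunits of complexes II to V 11 rose and 5 fell (median 0.08), with 17 higher without WT 3 and 22 without the 3 libraries, and 8 lower without WT 2. Of 79 cytosolic ribosomal proteins 23 rose, 11 fell and 45 were not called (median 0.10), and all 6 on chromosome 11 fell; the higher count was 15 without MIR210-KO 1, 41 without WT 3, 14 without WT 4 and 55 without the 3 libraries. RPS15 rose most (0.79 ± 0.09 SE), with 1930, 1599, 1454 and 1661 CPM in MIR210-KO and 1056, 817, 1149 and 821 CPM in WT.

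Of the 13 protein-coding genes of the mitochondrial genome 7 rose and 2 fell (median 0.35). MT-ND1 had 1090, 1244, 932 and 1014 CPM in MIR210-KO, against 580, 515, 614 and 454 CPM in WT (0.99 ± 0.08 SE, adjusted p = 9.77e-12), while MT-ND6, read from the other strand, fell (−0.48 ± 0.10 SE, adjusted p = 0.000246) with overlapping groups. Cytosolic heat shock genes rose in number, opposite to the ER chaperones. Of 21, 12 rose and 4 fell (median 0.20 at both oxygen levels), with HSP90AA1, the inducible cytosolic Hsp90, at 2745, 3107, 2766 and 2535 CPM in MIR210-KO, against 1531, 1462, 1581 and 1338 CPM in WT (0.92 ± 0.06 SE, adjusted p = 1.52e-14), and HSPA8, the constitutive Hsp70, at 0.81. HSPB8, a small heat shock protein, fell (−3.63 ± 0.18 SE; 1.22 ± 0.28 CPM in MIR210-KO and 15.2 ± 1.57 CPM in WT). Without WT 1, WT 3 and MIR210-KO 1, 2 of these 21 were lower in place of 4, and 1 mitochondrial gene was lower in place of 2.

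Cell cycle genes were slightly lower. Of 42 genes of G2 and mitosis 30 fell, 5 rose and 7 were not called (median −0.26, and −0.07 in normoxia), among them the spindle factor TPX2 (−0.85 ± 0.05 SE; 186 ± 7.67 CPM in MIR210-KO and 337 ± 13.4 CPM in WT), on chromosome 20, and NDC80, a kinetochore gene (−0.77). MKI67 rose (0.53 ± 0.07 SE), with 475 ± 32.7 CPM in MIR210-KO and 328 ± 49.3 CPM in WT. It lies on chromosome 10, in a 10 Mb window whose median was also 0.53. Without MIR210-KO 2, 3 of the 42 were higher in place of 5. Of 43 genes of DNA replication 21 fell and 7 rose (median −0.12); the higher count was 3 without MIR210-KO 1 or without WT 4, and 4 without MIR210-KO 4. Of 26 p53 targets 15 rose and 7 fell (median 0.31). FAS, a death receptor, had 20.9, 20.4, 19.9 and 19.5 CPM in MIR210-KO and 9.48, 9.41, 7.46 and 7.92 CPM in WT (1.23 ± 0.08 SE, adjusted p = 1.86e-14), and BAX (0.73) and MDM2 (0.38) rose, but CDKN1A (p21) was lower by little (−0.17) and GADD45A (−1.87) and GADD45B (−2.57), stress genes under several controls, fell. Large T antigen binds p53 in these cells.

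Among NRF2 targets, the antioxidant set, 7 rose and 10 fell of 23. NQO1 rose (1.91 ± 0.10 SE; 11.6 ± 0.34 CPM in MIR210-KO and 3.10 ± 0.45 CPM in WT) at both oxygen levels, whereas HMOX1, heme oxygenase, averaged 26.2 ± 2.21 CPM in MIR210-KO and 52.9 ± 5.88 CPM in WT in hypoxia (−1.01 ± 0.07 SE) but 40.8 ± 1.37 CPM in MIR210-KO and 25.5 ± 0.55 CPM in WT in normoxia (interaction −1.69 ± 0.10 SE, adjusted p = 1.56e-13). Of 31 genes of autophagy and lysosome 11 fell, 6 rose and 14 were not called, with GABARAPL1, an Atg8 protein, lower (−1.32) and LAMP1, in the higher end of chromosome 13, at 1.43.

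**Figure D3:**
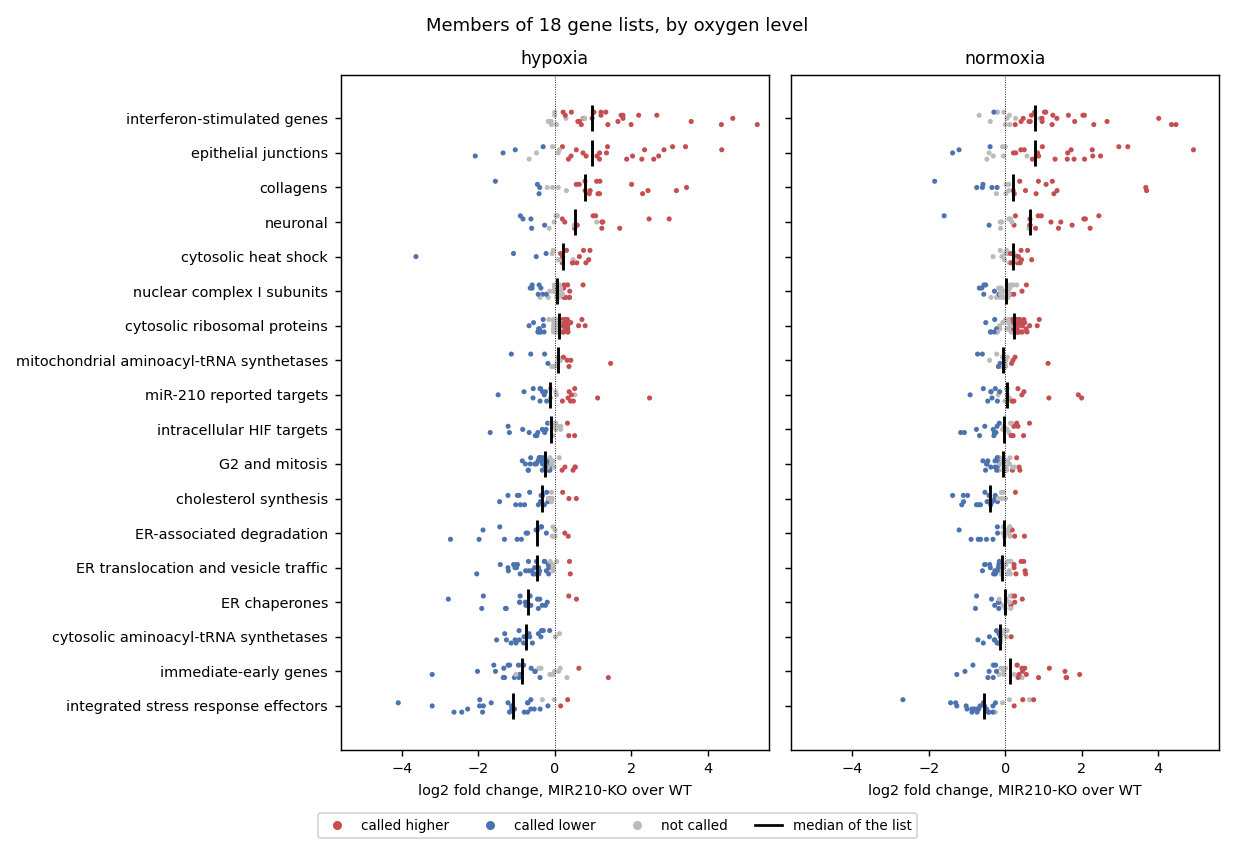
Log2 fold change (MIR210-KO over WT) of every tested member of 18 gene lists, in hypoxia on the left and in normoxia on the right, with red for called higher, blue for called lower, grey for not called and a black bar at the list's median. The ER chaperones centre on −0.70 in hypoxia and on −0.01 in normoxia, whereas the epithelial junction genes centre on 0.96 and 0.78.

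Outside the lists, the genes with the largest folds at 20 CPM or more were low in 1 genotype and present in the other. TRIB2, a pseudokinase, had 24.3, 25.4, 23.9 and 24.3 CPM in MIR210-KO, against 1.53, 2.03, 1.26 and 1.59 CPM in WT (3.92 ± 0.13 SE, adjusted p = 6.53e-22). The NADPH oxidase subunit CYBA (3.52), the orphan receptor GPR50 (3.19), the chloride and bicarbonate transporter SLC26A7 (3.32) and FNDC1 (3.52), ZMAT1 (3.53) and SUSD4 (3.40) followed, and all 7 were also higher in normoxia. At the low end, the mitochondrial reductase DHRS2 had 3.79, 4.10, 3.76 and 4.15 CPM in MIR210-KO, against 32.4, 33.2, 34.5 and 38.3 CPM in WT (−3.13 ± 0.12 SE, adjusted p = 2.44e-20). DHRS2 was at 0.957 ± 0.225 CPM in Normoxia MIR210-KO and 1.54 ± 0.51 CPM in Normoxia WT, so that its WT level in hypoxia stood apart from the other 3 groups. AFF2, a nuclear scaffold gene on chromosome X, was at 0.82 ± 0.28 CPM in MIR210-KO and 48.9 ± 10.4 CPM in WT, and in normoxia at 0.64 ± 0.16 CPM in MIR210-KO and 28.1 ± 1.55 CPM in WT. The largest gains in CPM, which is not scaled by gene length, were HSP90AA1, EEF1A1, ACTG1, AMOT (1.22), RPS15 and HSP90AB1. EEF1A1 (0.15) was not called without MIR210-KO 1 or 4 or without WT 2 or 4.

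Among long non-coding genes that reached 5 CPM, HOXB-AS4, antisense to the HOXB cluster, had 13.4, 15.8, 15.1 and 15.3 CPM in MIR210-KO, against 0.33, 1.10, 0.82 and 0.97 CPM in WT (4.18 ± 0.17 SE, adjusted p = 1.04e-19), and LINC00896 (3.53) and LINC00648 (3.13) followed. LINC01411 (−3.14), AC016205.1 (−2.86) and VLDLR-AS1 (−2.25) fell most. LINC01411 had 0.63, 0.70, 0.47 and 0.69 CPM in MIR210-KO and 5.07, 5.71, 5.51 and 5.82 CPM in WT. AC016205.1 lies on chromosome 18 at 39206924 to 39800318, in the window whose median was −1.36.

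Genes reported in the literature as miR-210 targets did not move as a group. Of 25, 9 rose, 11 fell and 5 were not called, the median was −0.12, and in normoxia 8 rose and 9 fell (median 0.04). Set against the median of each gene's own 10 Mb window, the hypoxia median was 0.05, so its sign depended on that choice. ISCU, the iron-sulfur scaffold and the best-known target, had 53.7, 51.6, 51.8 and 49.3 CPM in MIR210-KO, against 52.5, 47.2, 54.2 and 46.3 CPM in WT (0.04 ± 0.06 SE, adjusted p = 0.546), with overlapping groups. NPTX1, a neuronal pentraxin, rose most (186, 173, 187 and 182 CPM against 28.7, 32.8, 35.4 and 33.8 CPM; 2.48 ± 0.07 SE, adjusted p = 7.88e-24), HOXA9, a homeobox factor, was next (120 ± 3.54 CPM in MIR210-KO and 55.5 ± 1.69 CPM in WT; 1.12 ± 0.06 SE), and GPD1L (0.52), NDUFA4 (0.48), TCF7L2 (0.43), FGFRL1 (0.37) and ACVR1B (0.20) were among the others that rose, ACVR1B no longer without WT 1, WT 3 and MIR210-KO 1. PIM1, a kinase, fell most (14.8, 12.3, 12.9 and 13.8 CPM in MIR210-KO, against 40, 37.7, 39.4 and 33.4 CPM in WT; −1.48 ± 0.08 SE, adjusted p = 2.02e-16). KCMF1, a ubiquitin ligase, fell by 0.81, E2F3 and MNT by 0.57 each, COX10 and DIMT1 by 0.39 each and RAD52 by 0.38. PTPN1 fell by 0.32, EFNA3 by 0.28, TFRC by 0.25 and SDHD by 0.22. SDHD lies on chromosome 11, in a 10 Mb window whose median was −0.47, and PTPN1 on chromosome 20, whose median was −0.47. PIM1 lies on chromosome 6, in a 10 Mb window whose median was −0.54. Among targets that rose, TCF7L2 lies on chromosome 10, in a window whose median was 0.38, and HOXA9 on chromosome 7, in one at 0.29. EFNA3, which shares 44.7% of its exon bases, was not called without MIR210-KO 2 or 4 or without WT 1 or 3, nor was SDHD without MIR210-KO 1, 2 or 4 or without WT 1, 3 or 4. BDNF, CASP8AP2, SERTAD2 and TNPO1 were not called, though SERTAD2 and TNPO1 (each −0.12) were called lower without WT 1 or without WT 3.

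The sites of a few targets are shown so that the seed match can be set beside each direction. They are read from the annotation's transcripts on the gene's strand in GRCh38, 28 bases each, with the match to the seed in capitals: an 8-base match (ACGCACAA) in ISCU, KCMF1 and DIMT1, the 7 bases opposite positions 2 to 8 in E2F3, EFNA3, GPD1L and NPTX1, and 7 bases ending in A in HOXA9. All lie in 3' untranslated regions.
ISCU, chr12:108569014-108569041: agagctatgagatACGCACAAtacttgc
KCMF1, chr2:85053950-85053977: ttgtgtgcctcctACGCACAAagccagc
DIMT1, chr5:62388746-62388773: aggagccgcagagACGCACAActttaca
E2F3, chr6:20490605-20490632: acaaattgtctaaACGCACAgttgcagg
EFNA3, chr1:155087328-155087355: caggacctatgcaACGCACAgacacttt
GPD1L, chr3:32167529-32167556: cagctttgctgaaACGCACAttacctgg
NPTX1, chr17:80470678-80470705: gtcgcccctgcacACGCACAcgcacaca
HOXA9, chr7:27163475-27163502: cctccaccatcccCGCACAAagcggctc
The 3 genes with the 8-base match were not called (ISCU) or lower (KCMF1 and DIMT1), and those with 7 bases included both the highest target and lower ones. PIM1, the target that fell most, had no site of 7 or more bases in the transcript used.

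Over all tested genes with a 3' untranslated region (14258), those with an 8-base or 7-base match stood slightly higher. The 536 genes with such a match had a median log2 fold change of 0.08, and 38.1% rose and 27.8% fell, against −0.01 with 30.1% higher and 33.2% lower for 13050 genes without any match. By class, the median was 0.07 for 73 genes with the 8-base match, 0.10 for 346 with the match to positions 2 to 8 and 0.04 for 117 with the match ending in A, so the strongest class did not stand highest. Length moved with the match, the median region being 2684.5 bases with a match and 982 bases without. Among regions of at least 1000 bases the medians were 0.08 (458 genes) and 0.02 (6988 genes, none with an 8-base or 7-base match), and in normoxia, where MIR210HG was lower than in hypoxia, 0.06 and 0.04. These are descriptions, with no test, and a site in the transcript is not a measured target.

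**Figure D4:**
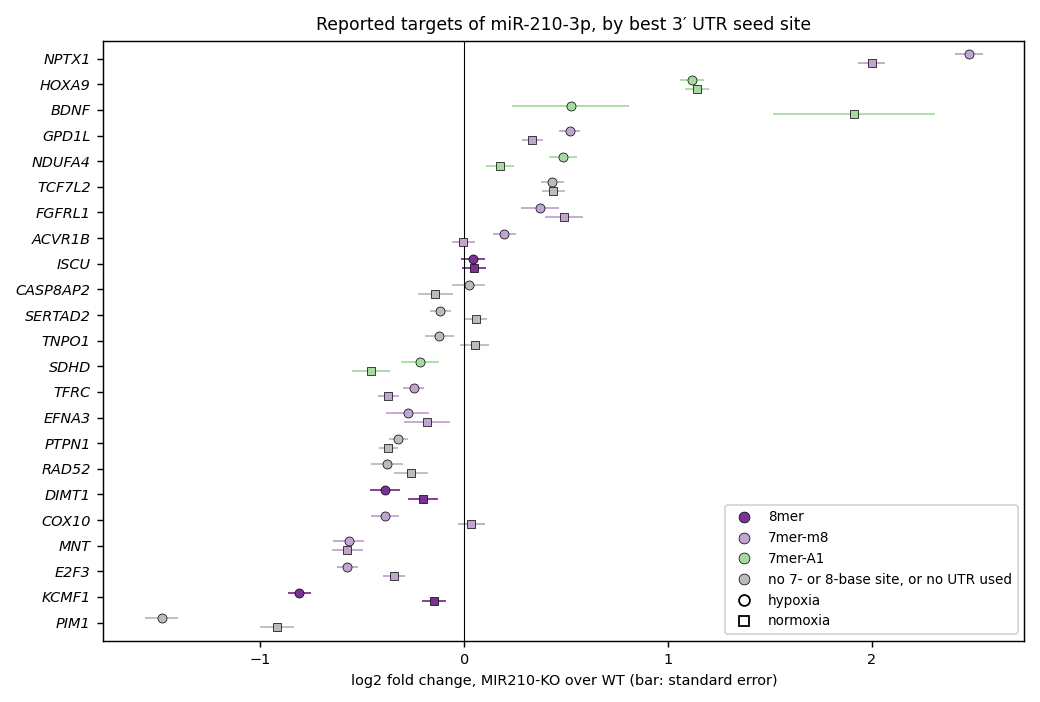
Log2 fold change (MIR210-KO over WT) with its SE of 23 of the 25 reported miR-210 targets in hypoxia (circles) and normoxia (squares), coloured by the best seed match in the 3' untranslated region. In hypoxia the values run from −1.48 (PIM1) to 2.48 (NPTX1), and ISCU, with an 8-base match, lies at 0.04.

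Neighbouring genes shared a direction along several chromosomes, at both oxygen levels. Over chromosome 11, which carries MIR210, the median log2 fold change of 1043 tested genes was −0.48 in hypoxia and −0.50 in normoxia, and 639 of them fell and 82 rose in hypoxia. Chromosome 20 was alike (499 genes, −0.47 and −0.46), and chromosome 10 stood higher (792 genes, 0.27 and 0.27). Of 282 windows of 10 Mb with at least 20 tested genes, 49 (17.4%) had a hypoxia median beyond 0.3 in size, 17 above and 32 below, and in all 49 the normoxia median had the same sign. The extremes were chromosome 18 at 30 to 40 Mb (49 genes, −1.36 and −1.41), chromosome 13 at 70 to 80 Mb (28 genes, −1.18 and −1), and chromosome 13 beyond 110 Mb (45 genes, 1.10 and 0.98). Hypoxia and normoxia shared no library, but the same 2 cell lines supplied both, and DNA copy number was not measured here.

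Near MIR210 itself the picture was that of its chromosome. Of 20 tested genes within 200 kb, MIR210HG left out, 12 fell, 1 rose and 7 were not called, with a median of −0.34 in hypoxia and −0.63 in normoxia. DEAF1, a transcription factor, had 88.6, 75.4, 75.2 and 83.3 CPM in MIR210-KO, against 149, 116, 153 and 132 CPM in WT (−0.77 ± 0.08 SE, adjusted p = 2.86e-10). PHRF1 (−0.43) and RASSF7 (−0.40), the nearest on either side with a call, fell as well, RASSF7 no longer without the 3 libraries that stood apart. EPS8L2 rose (0.78 ± 0.18 SE, adjusted p = 0.000483), with 7.78, 9.44, 5.55 and 4.40 CPM in MIR210-KO and 3.30, 4.16, 3.13 and 5.31 CPM in WT, overlapping, and it was not called without the 3 libraries. TMEM80 averaged 19.8 ± 1.31 CPM in MIR210-KO and 27.5 ± 2.46 CPM in WT in hypoxia, and 12.9 ± 0.70 CPM in MIR210-KO and 35.6 ± 1.56 CPM in WT in normoxia.

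When each member was set against the median of its own 10 Mb window, 20 of 40 list medians moved by less than their SD over the 4 MIR210-KO libraries and 20 by more. The median of the ER chaperones went to −0.67 (−0.70 uncentred), that of the integrated stress response effectors was −1.09 either way, the cytosolic synthetases stood at −0.79 (−0.74) and the immediate-early genes at −0.76 (−0.85). Epithelial junction genes stood at 0.95 (0.96), collagens at 0.77 (0.79) and interferon-stimulated genes at 0.74 (0.97). Intracellular HIF targets moved to −0.34 (−0.10) and the MHC class I list to 0.51 (0.28). The sign turned for the reported miR-210 targets, at 0.05 (−0.12), and for the NRF2 targets, at 0.01 (−0.08). Secreted hypoxia factors stood at −0.04 (−0.21), fibroblast and muscle markers at 0.30 (0.54) and serine, one-carbon and asparagine synthesis at −0.63 (−0.42). This setting was chosen after the data were seen.

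**Figure D5:**
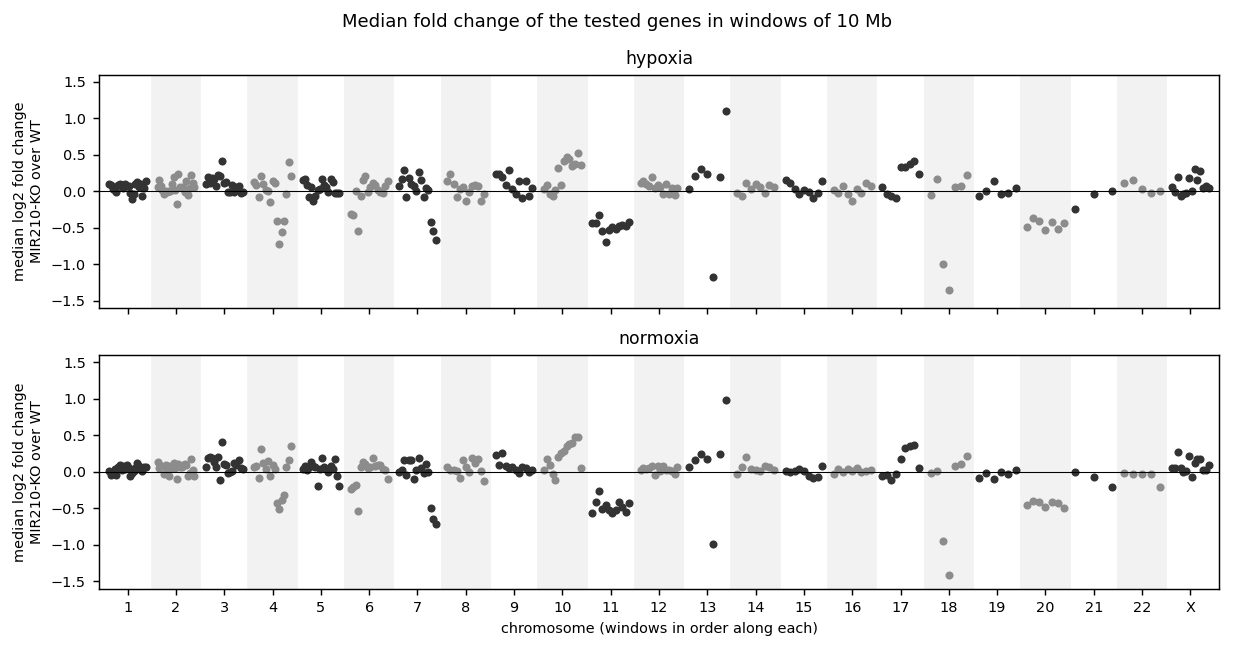
Median log2 fold change (MIR210-KO over WT) of tested genes in 10 Mb windows along chromosomes 1 to 22 and X, in hypoxia (top) and normoxia (bottom). Chromosomes 11 and 20 lie below 0 along their length (chromosome medians −0.48 and −0.47 in hypoxia), and the same windows on chromosomes 13 and 18 stand out in both panels.

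The MIR210HG-KO line, whose libraries had 0 counts of MIR210HG, offered a second edit at the locus. Between MIR210-KO and MIR210HG-KO in hypoxia 10988 genes (55.1%) were called, and this comparison shares its MIR210-KO libraries with the one against WT, so the values stand side by side. The ER chaperones had a median of −0.30 against MIR210HG-KO (12 lower, 2 higher) and −0.70 against WT, and HSPA5 averaged 323 ± 6.36 CPM in MIR210-KO, 537 ± 21.3 CPM in MIR210HG-KO and 2225 ± 233 CPM in WT. The integrated stress response effectors had −0.16 (13 lower, 10 higher) and −1.09, the cytosolic synthetases −0.15 and −0.74, and the immediate-early genes 0.26 (17 higher, 8 lower) and −0.85. In size, each of these 4 medians was smaller against MIR210HG-KO than against WT, with no test of that difference. Interferon-stimulated genes (1.24 and 0.97) and epithelial junction genes (0.94 and 0.96) were higher in MIR210-KO than in either, with LGALS3BP at 180 ± 13.5 CPM in MIR210-KO, 12.0 ± 0.83 CPM in MIR210HG-KO and 7.17 ± 0.78 CPM in WT. Cholesterol synthesis had a median of −0.77 against MIR210HG-KO (22 of 24 lower, 0 higher) and of −0.34 against WT, and HMGCS1 averaged 91.4 ± 3.46 CPM in MIR210-KO, 339 ± 21.8 CPM in MIR210HG-KO and 214 ± 10.6 CPM in WT. LDHA averaged 2171 ± 33.0 CPM in MIR210HG-KO, near WT, whereas VEGFA (181 ± 12.2 CPM) and NDRG1 (177 ± 7.07 CPM) were nearer to MIR210-KO.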

How the data were processed

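Bulk RNA-seq libraries of HEK293T cells were compared, 4 a group in 6 groups. The deposited values are raw counts per gene for 58735 genes, made by the authors with STAR 2.6.1d and featureCounts 1.5.0-p3 on GRCh38, per the submitters' processing notes, which also name DESeq2 1.20.0 and edgeR 3.24.3. The labels' protocols give TRIzol RNA and a NEBNext Ultra RNA kit. The strand setting is not given in the sources used here.

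Here, genes passing filterByExpr over the 6 groups (19952) were fitted with all 24 libraries by edgeR 4.0.16 in R 4.3.3 (TMM factors, glmQLFit and glmQLFTest, Benjamini-Hochberg adjustment over all genes tested). Adjusted p-values are from that test and a gene was called under 0.05. The SE is the size of the log2 fold change over the root of F, CPM uses TMM-scaled totals, and ± without SE is an SD over 4 libraries. Groups came from the sample labels. Hypoxia and normoxia libraries came in separate tables, so levels across them carry the table as well as the oxygen. Promoter windows and miRNAs are from RefSeq (GRCh38.p14), and gene spans and 3' regions from GENCODE 29. The procedure was tested on simulated data.

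Named genes were MIR210 and MIR210HG, the 10 highest and 10 lowest folds at 20 CPM or more without overlap, and the 6 largest gains and losses in CPM. Also named were the 3 highest and 3 lowest long non-coding genes and up to 6 called members of each list with its textbook members. The rest were the 4 largest called interactions of each sign among protein-coding genes at 20 CPM or more, the reported targets and genes within 200 kb of MIR210. List members named as exceptions to their list's direction, for a promoter match or as further examples were chosen after their values were seen. The members and lists were chosen with earlier results of these data known. Replicate numbers did not pair the libraries: same-numbered MIR210-KO and WT deviations correlated at 0.12, 0.0967, −0.0585 and 0.054. Alternatives were other normalisations, filters and tests, single libraries left out, a replicate block, and 3 chosen after seeing the data. A few list members are counted in their lists but not reported here by name.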

Additional observations from a re-analysis of the deposited data

Results flagged for a closer look

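Protein-coding genes with a called interaction and a mean of at least 20 CPM in a MIR210-KO or WT group were ranked by that term. In 8 of these genes, 4 of each sign, the hypoxia effect differed most from the normoxia effect, by the interaction term. It was −3.5 for C11orf96, −2.81 for HSPA5, −2.45 for GADD45B and −2.42 for DHRS2. C11orf96 averaged 4.4 CPM in MIR210-KO and 32.2 CPM in WT in hypoxia, and 5.69 CPM in MIR210-KO and 3.69 CPM in WT in normoxia; 41.9% and 30.1% of its exon bases are shared with other genes on the same and the opposite strand. GADD45B, a stress gene, averaged 6.41 CPM in MIR210-KO and 38 CPM in WT in hypoxia, and 8.81 CPM in MIR210-KO and 9.55 CPM in WT in normoxia.

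On the other side it was 1.49 for MAP2K6, 1.41 for NOTCH3, 1.37 for NYNRIN and 1.33 for STUM. MAP2K6, a kinase upstream of p38, averaged 36 CPM in MIR210-KO and 16.1 CPM in WT in hypoxia, and 26.4 CPM in MIR210-KO and 33.3 CPM in WT in normoxia. NOTCH3 averaged 110 CPM in MIR210-KO and 36 CPM in WT in hypoxia, and 119 CPM in MIR210-KO and 104 CPM in WT in normoxia. NYNRIN averaged 35.9 CPM in MIR210-KO and 22.6 CPM in WT in hypoxia, and 26.6 CPM in MIR210-KO and 43.5 CPM in WT in normoxia.

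SFRP1 in WT 1 stood apart from the other hypoxia WT libraries, at 4.322 CPM against 3.502, 3.58 and 3.619 CPM. It was 1 of 74 groups of 4 examined, and chance alone sets a library apart in about 1 group in 20.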

How the results depend on the processing

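Of the 11150 genes called between MIR210-KO and WT in hypoxia, 94.7% were also called by DESeq2, 99% with RLE factors, 93.1% with upper quartile factors, 92.1% without the filter, 90% with a minimum of 1 CPM in 4 libraries and 98.2% without mitochondrial genes. Leaving out single hypoxia libraries kept 91.2% to 93.3%, with 10495 to 11110 genes called, and leaving out WT 1, WT 3 and MIR210-KO 1 together kept 82.4%. No called gene turned its direction under any of these. With a minimum change of 2-fold, 740 genes were higher and 386 lower. Upper quartile factors moved the median of all genes to 0.08.

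The replicate block, on the 8 hypoxia libraries alone, called 5139 higher and 5231 lower genes, 10370 in all, against 9765 without the block. The libraries share only a number. Over all settings, 5479 fold changes of the named genes stayed on their side of the threshold. The call was lost by 240 and gained by 15, and 0 turned. Of the 240, 167 lost it with the minimum change of 2-fold, which asks for a larger difference than the main test. The cause of the other changes was not tested. Of the counts over lists, 1414 stayed within 1.5 times and 144 did not, 78 of them with the minimum change of 2-fold. Genes that did not pass the filter, among them MIR210 and 12 interferon-stimulated genes, had too few counts for it. Whether depth or level set this was not tested.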
